A study of Mus musculus with 2 samples.

Results

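Macrophages gated for transcripts of Spp1, Gpnmb, Mmp12 and Mfge8 were described in CD11b-selected cells of the mouse cochlea. A cell barcode was a gated macrophage when it had at least 200 detected genes, at most 10% mitochondrial UMIs (unique molecular identifiers, each standing for 1 captured transcript), a summed count of at least 5 UMIs over the 4 genes, at least 2 UMIs of the macrophage genes Cd68 and Csf1r together, fewer than 10 UMIs each of Ctsk and Col1a1, and fewer than 3 UMIs of Cd79a and Cd79b together. The rule found 68 such cells among 6803 deposited barcodes. Of these, 54 lay in the implanted library and 14 in the non-implanted library. Because measured counts chose the cells, values of the gate genes, and numbers of gated cells, are given as a description only, and expression was compared over genes outside the gate.

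The implanted library came from cochleae in which an electrode array had been placed 33 days earlier, and the non-implanted library from cochleae without an electrode. Mice of both groups were C57BL/6J, carried a GFP reporter at 1 Cx3cr1 allele and a Thy1-driven YFP reporter, and were pooled over males and females. The series concerns arrays with and without dexamethasone, but the labels do not say whether the electrode in these mice released the drug, how many animals were pooled, or whether the non-implanted cochleae were the opposite ears of implanted mice. Each group is 1 library, which leaves differences without a replicate check, and no test was made. The 95% intervals are exact and cover counting error only. They treat every UMI as independent, so a gene held by few cells has a wider error than its interval shows.

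Osteopontin, the product of Spp1, is a secreted phosphoprotein that binds integrins and CD44. Gpnmb encodes a transmembrane glycoprotein of late endosomes and lysosomes that is under the control of the MITF and TFE family in macrophages, Mmp12 the macrophage elastase, and Mfge8 a secreted bridge between phosphatidylserine on dying cells and integrins on phagocytes. Macrophages that carry these transcripts are known from lesions rich in lipid or debris, from fibrosis and from tissue around implanted materials, and the resident macrophages of the cochlea are marked by Cx3cr1, Csf1r and complement C1q.

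The start regions of genes that separated the gated cells were read for short motifs of lysosomal, AP-1 and antioxidant regulation, and 3 windows are shown because they hold a match and belong to a gate gene, to a gene with a high ratio outside the gate and to a peroxide-detoxifying gene that was high in the gated cells. Each window runs from 250 bases before to 50 after the gene's start in RefSeq on GRCm38.p6, all lie on the plus strand, and capitals mark a match to TGANTCA, the AP-1 motif, or to the reverse strand of TGACNNNGC, the core of the antioxidant response element. In Met and Prdx1 the capital run GCTGAGTCA is an overlap of both motifs.
Gpnmb chr6:49036268-49036567: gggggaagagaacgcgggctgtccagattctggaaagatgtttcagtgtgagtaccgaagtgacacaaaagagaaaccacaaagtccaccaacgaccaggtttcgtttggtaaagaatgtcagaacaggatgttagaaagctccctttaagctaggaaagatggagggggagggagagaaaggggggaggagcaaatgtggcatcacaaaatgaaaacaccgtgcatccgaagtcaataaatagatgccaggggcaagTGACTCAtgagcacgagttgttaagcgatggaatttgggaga
Met chr6:17463707-17464006: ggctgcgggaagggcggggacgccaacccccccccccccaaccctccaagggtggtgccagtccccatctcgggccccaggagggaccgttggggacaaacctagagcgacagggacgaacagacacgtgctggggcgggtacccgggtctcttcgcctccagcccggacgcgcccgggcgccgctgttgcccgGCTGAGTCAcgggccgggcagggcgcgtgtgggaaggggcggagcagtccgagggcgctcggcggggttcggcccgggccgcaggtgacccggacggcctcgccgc
Prdx1 chr4:116685349-116685648: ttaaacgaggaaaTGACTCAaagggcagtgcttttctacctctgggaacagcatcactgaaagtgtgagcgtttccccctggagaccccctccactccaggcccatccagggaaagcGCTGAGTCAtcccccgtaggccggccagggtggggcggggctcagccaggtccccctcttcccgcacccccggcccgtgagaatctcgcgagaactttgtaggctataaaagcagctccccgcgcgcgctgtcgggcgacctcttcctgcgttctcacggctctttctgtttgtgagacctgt

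Windows were listed for 4 of the 4 gate genes and for 9 of the 16 genes with the highest ratios described below. Of these 13 windows, 0 held TCACGTG, the motif of lysosomal CLEAR elements, and 0 held TCATGTG, the M-box. TGANTCA was found in 2 of them, Gpnmb and Met, and TGACNNNGC in 2, Met and Slc41a2. Among 32851 windows of the same length in the table, with both strands read, the shares that held a match were 3.77% for TCACGTG, 3.77% for TCATGTG, 7.81% for TGANTCA and 12.4% for TGACNNNGC. A match describes letters in the window and not a site of binding.

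Gated macrophages made up 1.71% of the filtered implanted cells (54 of 3149, 95% Clopper-Pearson interval 1.29 to 2.23) and 0.399% of the filtered non-implanted cells (14 of 3513, 0.218 to 0.668). Set against the other C1q-positive macrophages, which passed the same filters, had at least 3 UMIs of C1qa, C1qb and C1qc together and a gate sum under 5, the gated cells were 30.3% of 178 cells in the implanted library (23.7 to 37.7) and 7.91% of 177 cells in the non-implanted library (4.39 to 12.9). These are shares of cells that CD11b selection retained. The gate is a raw count and passes deep cells more easily: the gated cells held a median of 9402 UMIs in the implanted library and 7741 in the non-implanted library, against 5754.5 and 6097 UMIs in the other C1q-positive macrophages. Thinned to 2000 UMIs before the gate was applied, 35 implanted and 2 non-implanted cells passed.

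The libraries held 3231 implanted barcodes with 19593003 UMIs and 3572 non-implanted barcodes with 21577033 UMIs, and 6 barcode sequences occurred in both. Over both libraries together, 1 gated cell carried such a sequence. Most of the other cells were neutrophils, here barcodes with over 5% of their UMIs from S100a8 and S100a9, with 2277 in the implanted library at a median of 4124 UMIs. They serve as the background for transcripts that reach droplets as free RNA.

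Within the gate the 4 genes were far from evenly shared. In the implanted library Spp1 was detected in 49 of 54 gated cells (90.7%), Gpnmb in 31 (57.4%), Mfge8 in 17 (31.5%) and Mmp12 in 14 (25.9%). Cells had a median of 27.5 Spp1 UMIs with a highest count of 1449, and a median of 3.5 Gpnmb UMIs with a highest of 406. For Mmp12 and Mfge8 the median was 0, and the highest counts were 397 and 712 UMIs. Thus 50% of the UMIs lay in 4 cells for Spp1, 4 for Gpnmb, 3 for Mmp12 and 2 for Mfge8, and a label that names Mmp12 holds for a minority of the cells. Cd68, the lysosomal glycoprotein that marks macrophages, was detected in 49 of the 54 cells.

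The 14 gated cells of the non-implanted library stood close to the threshold. Their gate sums ran from 5 to 25 UMIs with a median of 5, against 5 to 2474 with a median of 47 in the implanted library. Spp1 was detected in 9 of them, Gpnmb in 11, Mmp12 in 2 and Mfge8 in 1. A gate sum of 5 to 9 UMIs was held by 11 implanted and 10 non-implanted cells, one of 10 to 49 by 16 and 4 cells, and one of 50 or more by 27 and 0 cells. Just inside the threshold, at a sum of 5, lay 3 implanted and 8 non-implanted cells, and just outside it, at a sum of 4, lay 9 and 3. Among gated cells the libraries thus overlapped in gate sum only below 50 UMIs. Cells that other limits kept out of the gate reached 50 or more UMIs in 8 implanted and 2 non-implanted cases.

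**Figure D1:**
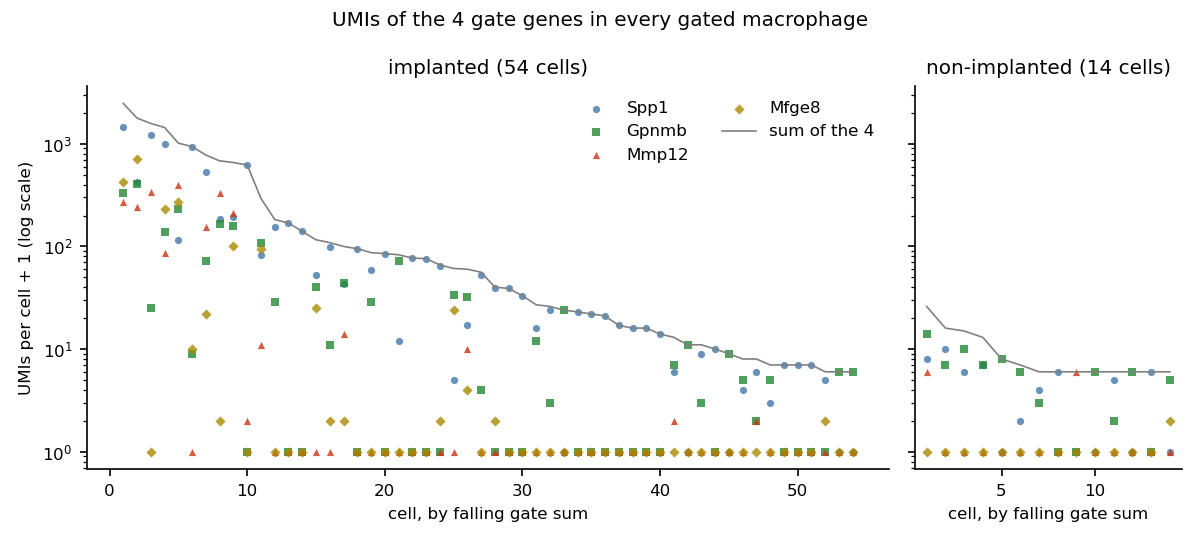
UMIs of Spp1, Gpnmb, Mmp12 and Mfge8, plus 1 on a log scale, in each gated macrophage of the implanted library (left, 54 cells) and of the non-implanted library (right, 14 cells), ordered by falling gate sum, which the line shows. Sums reach 2474 UMIs in the implanted library and 25 in the non-implanted library, and high Mmp12 and Mfge8 counts lie mostly in the cells with the highest sums.

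Markers of other cell types were read beside the gate. In the implanted library 8 of 8 macrophage markers were detected and summed to 7463 CPM (UMIs per 1e6 UMIs of the class) in the gated cells and 10861 CPM in the other C1q-positive macrophages. Of 6 fibroblast markers, Col3a1, Lum and Pdgfra were at 0 in the gated cells, as was Col1a1, which the gate limits. So were Flt3, Cd209a, Xcr1 and Ccr7 of 6 dendritic cell markers, Oscar of 8 osteoclast markers, and Tyrp1, Mlana and Tyr of 5 melanocyte markers. Of these, Col1a1, Flt3, Cd209a and Tyr were detected in the other macrophages, and the rest were at 0 there too. The remaining fibroblast, dendritic cell and melanocyte markers were found in 2, 4 and 5 gated cells. But 7 of the 8 osteoclast markers were detected, with a UMI in 42 of 54 gated cells and 56 of 124 others. The Schwann cell markers summed to 60.9 CPM in the gated cells and 89.6 CPM in the other macrophages, and the B cell markers to 40.1 and 156 CPM. The 8 neutrophil markers summed to 47147 CPM in the gated cells and 62978 CPM in the other macrophages. Of the S100a8 and S100a9 UMIs of the gated cells, 89.3% lay in 5 cells, which held 107608 of the 673283 UMIs of the class. In the other macrophages 94.2% lay in 17 of 124 cells, which held 233582 of 870950 UMIs. These 5 and 17 cells had over 5% of their UMIs from the 2 genes. The cause of these neutrophil transcripts was not tested, and in the non-implanted library 3 of the 14 gated cells were rich in them.

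Complement C1q was not part of the gate. Of the 54 implanted gated cells, 35 had at least 3 C1q UMIs and 14 had none, so not all of them were C1q-positive macrophages. At least 5 UMIs of the MHC class II genes H2-Aa, H2-Ab1 and H2-Eb1 were found in 17 gated cells (31.5%), against 75 of 124 other C1q-positive macrophages (60.5%), although the gated cells were deeper. In the non-implanted library 7 of 14 gated cells (50.0%) and 128 of 163 other macrophages (78.5%) reached that count. The non-implanted share rests on 14 cells. Neutrophils reached the count in 0.878% of 2277 implanted cells.

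**Figure D2:**
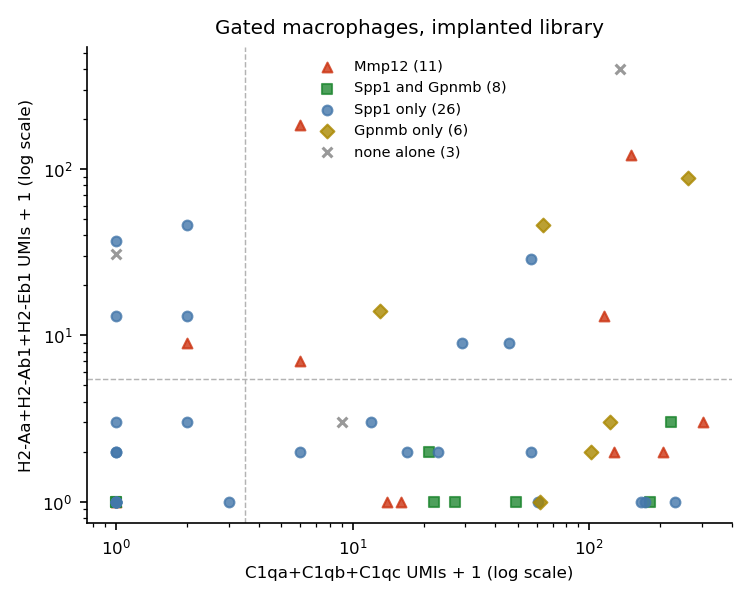
Each point is a gated macrophage of the implanted library, placed by its C1qa, C1qb and C1qc UMIs (horizontal) and its H2-Aa, H2-Ab1 and H2-Eb1 UMIs (vertical), both plus 1 on log scales. Symbols show which of Spp1, Gpnmb and Mmp12 were present at 5 or more UMIs. Dashed lines mark the limits of 3 and 5 UMIs: 35 cells lie right of the first and 17 above the second.

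Genes outside the gate were compared between the 54 gated cells and the 124 other C1q-positive macrophages of the implanted library, so that both classes came from 1 library. UMIs were summed per class, and the ratio is the log2 of CPM plus 5 in gated over other cells. Of 7894 genes with at least 20 UMIs in the 2 classes together, 366 (4.64%) were at least 2-fold higher in the gated cells and 637 (8.07%) at least 2-fold lower. The median log2 ratio of all genes was -0.12, and with ratios centred on it the counts were 456 higher and 499 lower. On the uncentred scale more genes were lower than higher in gated cells, and after centring the 2 directions were nearly even.

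Atp6v0d2 encodes a vacuolar ATPase subunit of lysosomes that is known from osteoclasts and fused macrophages. It had the highest log2 ratio of the genes with a UMI in at least 25% of gated cells. Its gene lies on chromosome 4, bases 19876841 to 19922605 of GRCm38, minus strand, in GENCODE vM21. It stood at 873 CPM in gated cells and 37.9 CPM in other C1q-positive macrophages of the implanted library (ratio 23.05, 95% interval 16.2 to 33.8), and at 145 against 52.9 CPM in the non-implanted library (2.74, 1.53 to 4.67). It was detected in 26 of 54 gated cells and 6 of 124 other macrophages. Its per-cell median was 0 CPM in both implanted classes, with highest values of 6576 CPM in a gated cell and 1417 CPM in another macrophage, so the cells overlapped and the difference lay in the upper part of the gated class. Thinned to 2000 UMIs per cell, it was detected in 36.7% of gated cells, 4.12% of other macrophages and 0.488% of neutrophils. Fbxo32, an F-box subunit of a ubiquitin ligase, followed with 434 against 20.7 CPM (20.98, 13.04 to 35.9), and with 129 against 12.02 CPM in the non-implanted library.

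Fn1, which encodes the matrix protein fibronectin on chromosome 1 (bases 71585520 to 71653200, minus strand), had 1542 CPM in gated cells and 119 CPM in the other macrophages of the implanted library (ratio 12.9, 10.5 to 15.9). It had 645 CPM in gated cells of the non-implanted library and 28.06 CPM in the others there. The per-cell median was 829 CPM in implanted gated cells and 0 CPM in the others, with 38 of 54 and 17 of 124 cells carrying a UMI. After thinning, the shares with Fn1 were 59.2% of gated cells, 9.28% of other macrophages and 1.22% of neutrophils. Fabp5, a cytosolic fatty acid-binding protein encoded on chromosome 3 (bases 10012548 to 10016607, plus strand), had 1326 against 159.6 CPM in the implanted library and 298 against 40.1 CPM in the non-implanted library. Its relative Fabp4 had 249.5 against 18.4 CPM, and 80.6 against 21.6 CPM. All 3 genes were thus higher in gated cells of both libraries, and their implanted levels were the higher ones in the gated class.

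The other genes of the 16 with the highest ratios were the ubiquitin ligase genes Rnf128 and Rnf217, the lipid phosphatase Plpp3, the aminopeptidase Anpep, the metalloproteinase Mmp19, the hepatocyte growth factor receptor Met, the adhesion molecule Clmp, the magnesium transporter Slc41a2, and Ahnak2, Lsmem1 and Fam71f2. Met had 158.9 against 10.3 CPM in the implanted library and was detected in 24 of 54 gated cells and 5 of 124 others. Slc41a2 had a UMI in 38 of 54 gated cells, as many as Fn1, and in 10 of 124 others, at 151.5 against 17.2 CPM. Thinned to 2000 UMIs per cell, Slc41a2 was detected in 24.5% of gated cells, 4.12% of other macrophages and 0.244% of neutrophils. Because these genes were named from the same cells, their count within parts of either class is largely fixed by that choice and is no support. As a description, all 16 were at least 2-fold higher against the MHC class II high and the MHC class II low part of the other macrophages, and in the 35 gated cells with at least 3 C1q UMIs. Over all genes, 5.75% were higher and 6.81% lower against the MHC class II high part, 7.77% and 9.12% against the MHC class II low part, and 4.68% and 8.99% in the C1q-positive gated cells.

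In the non-implanted library, 7 of these 16 genes had 20 UMIs or more, and 5 were at least 2-fold higher and 1 lower in gated cells, against 6.17% and 13% of 7701 genes. The gene that was lower was Plpp3, with 0 UMIs in 14 gated cells and 17.6 CPM in the others. Between the other C1q-positive macrophages of the 2 libraries, 10 of the 16 were measured, and 2 were at least 2-fold higher and 1 lower in the implanted library, against 1.38% and 1.65% of 8908 genes. Fn1 was 119 CPM and Fabp5 159.6 CPM in the other macrophages of the implanted library, against 28.06 and 40.1 CPM in those of the non-implanted library. Atp6v0d2 and Fabp4 went the other way, with 37.9 and 18.4 CPM in the other macrophages of the implanted library, against 52.9 and 21.6 CPM in those of the non-implanted library. The median log2 ratio of the 10 genes between these macrophages was -0.23, so the genes had no common direction outside the gate.

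**Figure D3:**
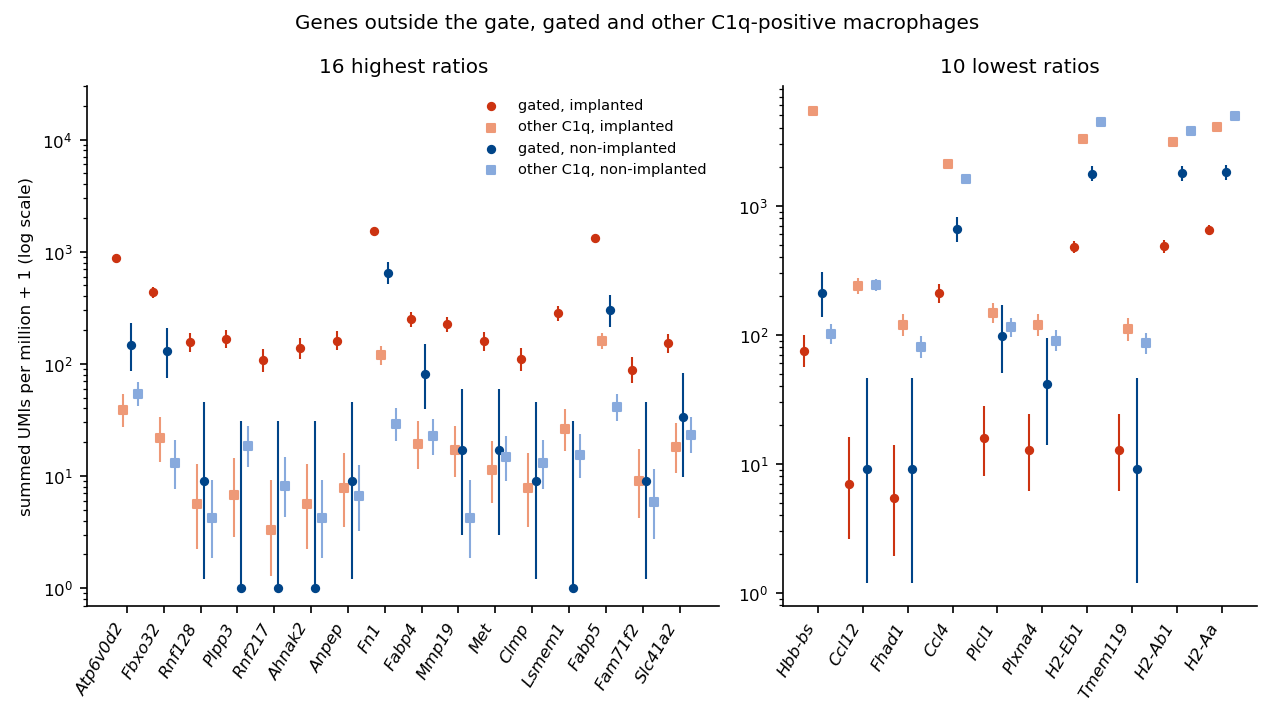
Summed CPM plus 1, on a log scale, of the 16 genes with the highest and the 10 with the lowest ratios in gated macrophages (circles) and other C1q-positive macrophages (squares) of the implanted library (red) and the non-implanted library (blue). Lines are 95% Poisson intervals of counting. The red circles lie above the red squares at left, with Atp6v0d2 at 873 against 37.9, and below them at right.

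Of the 10 genes with the lowest ratios, 7 were at least 2-fold lower and 3, the H2 genes, at least 2-fold higher against the MHC class II low part of the other macrophages, which was chosen by those H2 counts. Among the 10 were 3 MHC class II genes, 2 chemokines and the microglial gene Tmem119. H2-Aa had 646 CPM in gated cells and 4066 CPM in other macrophages of the implanted library, and 1814 against 4953 CPM in the non-implanted library. H2-Ab1 and H2-Eb1 had 483 and 477 CPM in implanted gated cells, against 3137 and 3263 CPM. Ccl4, a chemokine for monocytes and lymphocytes, had 209 against 2090 CPM, and Ccl12, a ligand of Ccr2, 5.94 against 239 CPM (ratio 0.0249, 0.00672 to 0.0647). Tmem119 had 11.9 against 109 CPM. The adhesion and signalling genes Plxna4, a semaphorin co-receptor, and Plcl1, a phospholipase C-like protein without catalytic activity, and Fhad1 were also at least 2-fold lower.

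Hbb-bs, the adult beta globin gene, had the lowest ratio, with 74.3 CPM in gated cells and 5384 CPM in other macrophages. The 5 erythroid markers summed to 123 CPM in gated cells and 9242 CPM in other macrophages of the implanted library, where they reached 19.9% of the UMIs of 1 cell. In the non-implanted library they summed to 330 and 181 CPM, and Hbb-bs there had 209.6 CPM in gated cells and 100.2 CPM in the others. The part of red cell RNA in this ratio was not tested.

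List counts against the other macrophages of the implanted library are read beside the 4.64% of all genes that were at least 2-fold higher and the 8.07% lower. Of 29 measured lysosomal enzyme genes 6 were at least 2-fold higher and 0 lower, with a median log2 ratio of 0.55 against -0.12 for all genes. With every cell weighted equally the median was 0.23. Ctsl, a cysteine protease of the endolysosome, had 2623 CPM in gated cells and 498 CPM in the others of the implanted library (ratio 5.26, 4.74 to 5.86), with per-cell medians of 905 and 116 CPM, but 298 against 246 CPM in the non-implanted library. Cstb, an inhibitor of cathepsins, had 1193 against 374 CPM, the acid lipase Lipa 594 against 187 CPM and Ctsb 4542 against 1912 CPM. Of 26 genes of the lysosomal membrane and vacuolar ATPase, 3 were higher and 0 lower (median 0.48), namely Atp6v0d2, the tetraspanin Cd63 and Atp6v1e1, which neutrophils also carried at 373 CPM.

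Genes of lipid uptake, storage and export had a median log2 ratio of 0.71, with 11 of 29 genes at least 2-fold higher and 2 lower. Lpl, which releases fatty acids from lipoproteins, had 1796 CPM in gated cells and 271 CPM in the others of the implanted library, and 1088 against 292 CPM in the non-implanted library. Per-cell medians in the implanted library were 382 and 0 CPM. Cd36, a scavenger receptor for oxidised lipids and dying cells, had 738 against 160 CPM, and 363 against 111 CPM in the non-implanted library. The cholesterol exporter Abca1, Soat1, which esterifies cholesterol for storage, the scavenger receptor Msr1 and the lipid droplet protein Plin3 were at least 2-fold higher as well. The nuclear receptor Pparg and the cholesterol hydroxylase Ch25h were lower, at 96.5 against 207 CPM and 7.43 against 29.9 CPM.

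The genes of lipid-associated and disease-associated macrophages, a programme known from adipose tissue and from microglia near plaques, had a median of 1.15, with 12 of 23 genes at least 2-fold higher and 2 lower. This was the highest median of the 26 lists in summed UMIs only: with every cell weighted equally it was 0.61, under glycolysis and hypoxia at 0.92, matrix proteins at 0.76 and lipid uptake at 0.75. The list holds genes that other lists also hold. Lgals3, which encodes galectin-3, a lectin that binds damaged lysosomes and matrix, had 5482 CPM in gated cells and 1257 CPM in the others, and 1669 against 544 CPM in the non-implanted library. Trem2, a lipid-sensing receptor, had 1294 against 507.5 CPM, the tetraspanin Cd9 1508 against 447 CPM, Igf1 365 against 140.1 CPM and the integrin chain Itgax 336 against 59.7 CPM. Neutrophils carried Cd9 at 807 CPM, a level between the classes. The list was not wholly on 1 side: the receptor kinase Axl had 106.9 against 351 CPM and the adhesion molecule Cadm1 59.4 against 374 CPM.

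Among matrix genes, 7 of 24 matrix proteins and growth factors were at least 2-fold higher and 1 lower (median 0.46). Beside Fn1 and Lgals3, the extracellular matrix protein Ecm1 had 102.5 against 10.3 CPM, the angiogenic factor Vegfa 272 against 56.3 CPM and the activin subunit Inhba 40.1 against 11.5 CPM. Sparc, a collagen-binding protein, had 43.07 against 156 CPM, with 51.7% of the gated UMIs in 1 cell. Of 16 matrix proteases and inhibitors 4 were higher and 2 lower (median 0.06, but at or just under 0 with a gate sum of at least 50 or with C1q-positive gated cells alone). Mmp19 stood at 224 against 16.07 CPM, and the sheddase Adam8 and the convertase Furin were at least 2-fold higher, while Mmp9, which neutrophils carried at 869 CPM, was at 86.1 against 185 CPM and the urokinase gene Plau at 38.6 against 94.2 CPM.

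Receptors for the gate products were mixed. Of 14 genes in the list of integrins and receptors, 2 were at least 2-fold higher, Itgax and the shared beta chain Itgb2 (median -0.27). The 3 lower ones were the integrin chain Itga9 and the adhesion molecules Icam1 and Vcam1. Icam1 and Vcam1 are ligands of integrins and not receptors for osteopontin or Mfge8. Itgb2 had 619 against 208 CPM, and neutrophils had 302 CPM. Cd44, the hyaluronan and osteopontin receptor, had 1194 against 626 CPM and lay under the 2-fold limit. Of 19 genes of efferocytosis, the uptake of dying cells, 5 were higher and 1 lower (median -0.08, but above 0 after centring and under 4 other settings): Cd36, Trem2, Lrp1 and the annexins Anxa1 and Anxa5 against Axl. Anxa1 had 2021 against 571 CPM, but 548 against 837 CPM in the non-implanted library, and neutrophils had 2489 CPM.

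Iron storage and detoxification of peroxides stood out in level. The ferritin chains are among the transcripts with the most UMIs in these cells: Fth1 had 32588 CPM in gated cells and 9662 CPM in other macrophages of the implanted library (ratio 3.37, 3.29 to 3.46), and Ftl1 9339 against 3750 CPM. Without an implant Fth1 had 12744 against 7555 CPM, and Ftl1 6432 against 4070 CPM. The heme transporter Slc48a1 and the biliverdin reductase Blvrb were also at least 2-fold higher, at 247 against 65.4 CPM and 419 against 193 CPM. The transferrin receptor Tfrc, the copper ferroxidase Cp and the heme synthesis enzyme Fech were lower. Thus 4 of 16 iron and heme genes were higher and 3 lower (median -0.01, but above 0 after centring and under most other settings). Erythroid markers summed to 9242 CPM in the other macrophages of the implanted library and 123 CPM in gated cells. The part of red cell RNA in these lower values was not tested.

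Prdx1, a peroxiredoxin whose start region is printed above, had 2871 CPM in gated cells and 525 CPM in other macrophages of the implanted library (ratio 5.47, 4.94 to 6.07). It had 1757 against 541 CPM without an implant. Per-cell medians in the implanted library were 818 and 324 CPM, and 5 cells held 50% of the gated UMIs. The glutathione synthesis genes Gclm and Gclc had 172 against 48.2 CPM and 196 against 64.3 CPM, and Txn1, thioredoxin, 916 against 339 CPM. Of 20 oxidative stress genes 4 were at least 2-fold higher and 0 lower (median 0.56), the metallothionein Mt1 being at 269 against 511 CPM.

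Glycolysis and hypoxia genes had a median log2 ratio of 0.75, with 8 of 29 genes at least 2-fold higher and 1 lower. Ndrg1, a hypoxia-induced protein, had 143 against 18.4 CPM, Hilpda, an inhibitor of triglyceride breakdown, 269 against 82.7 CPM, Bnip3, a mitophagy receptor, 53.5 against 14.9 CPM, and the glycolytic enzyme Aldoa 686 against 285 CPM. The glucose transporter Slc2a3 had 32.7 against 78.1 CPM and was carried by neutrophils at 353.5 CPM. Of 25 respiratory chain genes 0 were 2-fold higher or lower (median 0.23). In the non-implanted library the glycolysis list had a median of -0.03, with 1 of 27 higher and 3 lower, near the 6.17% and 13% of all genes there. Of 15 genes of arginine, polyamine and itaconate metabolism 3 were higher and 1 lower (median 0.17, but -0.01 with cells thinned): arginase Arg1 had 382 against 54.0 CPM with 42.8% of the gated UMIs in 1 cell, and was at 0 UMIs in the 14 non-implanted gated cells.

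Antigen presentation by MHC class II was lower as a whole. Of 11 measured genes 9 were at least 2-fold lower and 0 higher, with a median of -1.82, and in the non-implanted library 6 of 11 were lower (median -1.10), against 13% of all genes there. The invariant chain Cd74 had 2035 CPM in gated cells and 10290 CPM in other macrophages of the implanted library, and the transactivator Ciita 2.97 against 49.4 CPM. Set against the MHC class II low macrophages alone, which were chosen by their low H2 counts, 4 of 10 genes were at least 2-fold higher in gated cells and 0 lower (median 0.41), where 7.77% and 9.12% of all genes were. Few gated cells held the H2-Aa, H2-Ab1 and H2-Eb1 UMIs of the implanted library. Of 54 cells 2 held 50% of them and 1 held 37.1%, and the median cell had 1 UMI. Of 15 MHC class I genes 0 were 2-fold higher or lower (median -0.07, but above 0 after centring), H2-D1 being at 2027 against 1365 CPM.

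Resident macrophage genes had a median of -0.49, with 1 of 17 genes at least 2-fold higher and 5 lower. Cx3cr1, the fractalkine receptor whose locus carries the GFP reporter, had 110 against 472 CPM. The leukotriene synthase Ltc4s had 14.9 against 81.5 CPM and the lectins Mgl2 and Clec10a were lower too, while Ccl24 was higher with 61.9% of its gated UMIs in 1 cell. Microglial markers summed to 40.1 CPM in gated cells and 297 CPM in the others. Of 17 complement and Fc receptor genes 2 were higher and 2 lower (median -0.22, but 0.07 with cells thinned to 2000 UMIs): C1qa had 1485 against 3161 CPM, but C1q chose the other macrophages, and the Fc receptor Fcgr3 had 554 against 256 CPM.

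Monocyte genes had a median of -0.26, with 1 of 19 higher, S100a4, and 3 lower, Ccr2, Ms4a4c and Ly6c2. The median was 0.16 with every cell weighted equally and 0.17 without the 11 cells with Mmp12, so it had no fixed direction. In the non-implanted library 8 of 18 monocyte genes were at least 2-fold higher and 1 lower in gated cells (median 0.72), where 6.17% and 13% of all genes were. Plac8 had 629 CPM in gated cells and 111 CPM in the others there. The 6 monocyte markers summed to 3627 CPM in these gated cells, 2700 CPM in the others and 6592 CPM in neutrophils of that library. Of the 124058 UMIs of these gated cells, 35024 lay in the 3 cells rich in neutrophil transcripts. The part of neutrophil RNA in the monocyte list was not tested.

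Chemokines and their receptors had 4 of 21 genes at least 2-fold higher and 9 lower (median -0.47, but 0.03 with cells thinned to 2000 UMIs). Cxcl3, a neutrophil attractant, had 561 against 4.59 CPM, with 62.2% of the gated UMIs in 1 cell and a UMI in 10 of 54 gated cells, and Cxcl1 had 227 against 39.04 CPM in 12 and 7 cells. The lower ones were led by Ccl12, Ccl8, Ccl5, Ccl4 and Ccl3. Of 25 inflammatory genes 0 were higher and 5 lower (median -0.33, but 0.01 with every cell weighted equally), among them the cytokine Il18 at 5.94 against 43.6 CPM and the cyclooxygenase Ptgs1 at 22.3 against 79.2 CPM. Of 20 interferon-induced genes 0 were higher and 1 was lower, Cxcl10 (median -0.15).

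Glucocorticoid-responsive genes were read because the series concerns dexamethasone. Of 14 measured 2 were at least 2-fold higher and 3 lower (median -0.40). Sgk1, a serum- and glucocorticoid-induced kinase, had 599 CPM in gated cells and 93.0 CPM in other macrophages of the implanted library (ratio 6.44, 5.06 to 8.27), and was detected in 38 of 54 and 32 of 124 cells. Without an implant it had 113 against 75.3 CPM (1.50, 0.789 to 2.64), which lay within counting error. Klf9, a glucocorticoid-induced transcription factor, had 44.6 against 13.8 CPM, and the decoy receptor Il1r2, Cebpd and Zbtb16 were lower. The part of neutrophil RNA in these lower values was not tested. Both implanted classes came from 1 library and share whatever the electrode released, which the labels do not give.

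Among 29 transcription factors of macrophages and lysosomes 3 were at least 2-fold higher and 2 lower (median -0.15, but 0.10 with every cell weighted equally). Bhlhe40 and Bhlhe41, paired repressors of the basic helix-loop-helix class, had 287 against 80.4 CPM and 41.6 against 8.04 CPM, and Id3, an inhibitor of that class, 105.5 against 45.9 CPM. Of 20 immediate early and heat shock genes 0 were higher and 5 lower (median -0.55), with the inducible Hsp70 genes Hspa1a and Hspa1b at 95.1 against 401 CPM and 52.0 against 312 CPM. Of 27 cell cycle genes 0 were higher and 13 lower (median -0.94), against 8.07% of all genes. The median was -1.77 with neutrophil-rich cells left out and -0.45 without the 11 cells with Mmp12, where 2 genes were higher and 9 lower. The linker histone gene Hist1h1b had 0 UMIs in gated cells and 87.3 CPM in the others, and the marker of cycling cells Mki67 had 63.9 against 138 CPM.

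Genes of multinucleated giant cells and osteoclasts were read because such cells are known to form on implanted materials. Of 18 measured 5 were at least 2-fold higher and 3 lower (median 0.49). Dcstamp, needed for fusion, had 54.95 against 16.07 CPM and was found in 6 of 54 gated cells and 5 of 124 others, and the acid phosphatase Acp5 had 184 against 79.2 CPM in 25 and 20 cells. The carbonic anhydrase Car2, needed for acid secretion by osteoclasts, had 1.49 against 93.0 CPM, and the receptor gene Oscar was at 0. The part of red cell RNA in the Car2 value was not tested. The 8 osteoclast markers summed to 361 CPM in gated cells and 273 CPM in the others. They include Ctsk, which was held under 10 UMIs per cell in both classes. By that limit alone 10 implanted and 4 non-implanted cells were left out. Of these, 4 implanted cells had Mmp12 at 5 UMIs or more, with gate sums of 2031, 513, 352 and 337 UMIs and Ctsk counts of 43, 14, 28 and 10. They resembled the gated cells in gate sum. In those with sums of 2031 and 352, S100a8 and S100a9 held 9.68% and 15.6% of the UMIs. In those with sums of 513 and 337 the 2 genes held 0.0613% and 0.126%. By contrast, 5 other implanted and the 4 non-implanted cells left out had Ctsk counts of 168 to 435 and gate sums of 6 to 36. The 1 remaining implanted cell had a gate sum of 61 with 10 Ctsk UMIs.

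**Figure D4:**
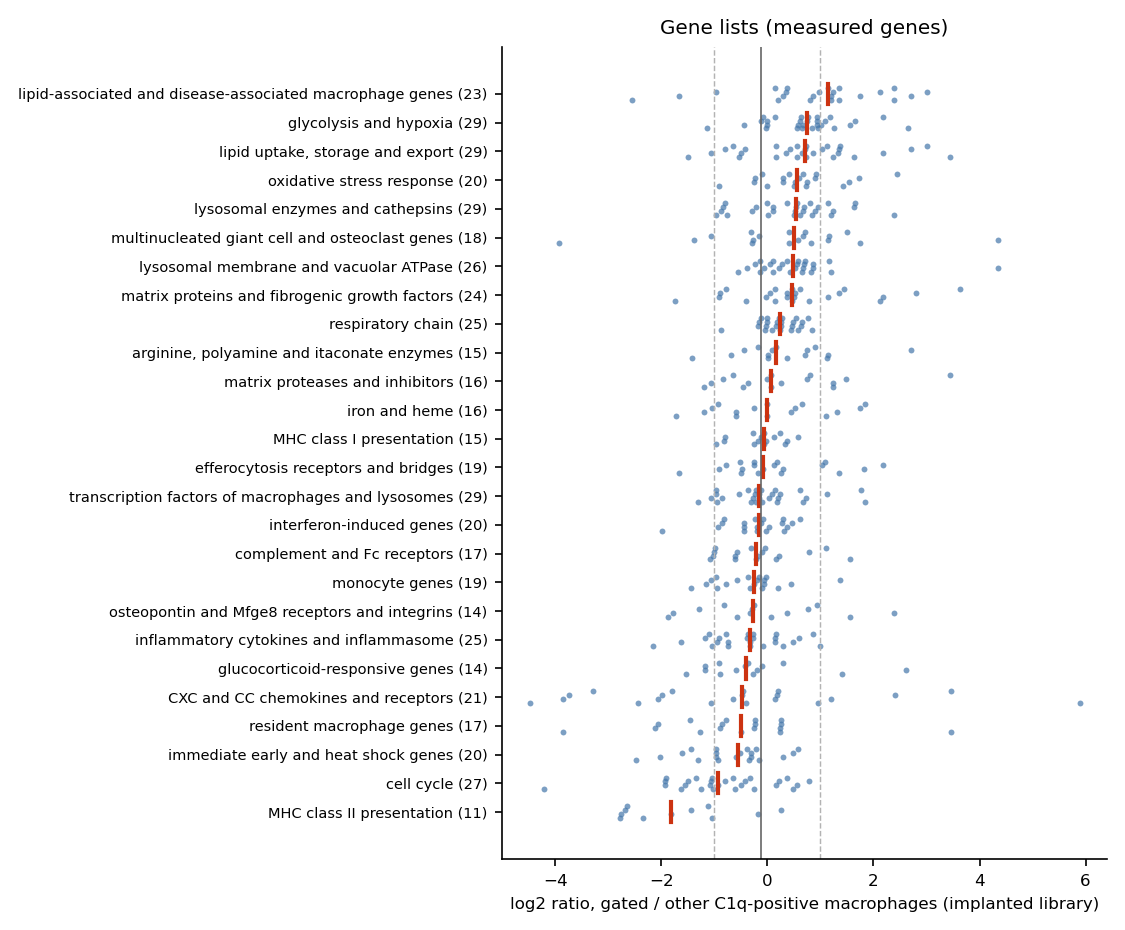
Log2 ratio of gated to other C1q-positive macrophages of the implanted library for each measured gene of 26 lists (points) with the list's median (red bar) and number of genes. The grey line is the median of all 7894 genes, -0.12, and dashed lines mark 2-fold. The medians run from 1.15 for lipid-associated and disease-associated macrophage genes to -1.82 for MHC class II presentation.

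The gated cells were then divided by which of Spp1, Gpnmb and Mmp12 they carried at 5 or more UMIs. Mfge8 was not used in the division. In the implanted library 11 cells carried Mmp12, called Mmp12 members here, of which all 11 also had a Spp1 and a Gpnmb UMI and 10 had Mfge8. A further 8 carried Spp1 and Gpnmb without Mmp12, 26 only Spp1, called Spp1-only members, 6 only Gpnmb, and 3 reached the sum of 5 without 5 UMIs of any gene alone. Mmp12 members had gate sums of 59 to 2474 UMIs with a median of 776, and Spp1-only members of 6 to 621 with a median of 23.5. Median depth was 18403 UMIs in Mmp12 members and 6349 UMIs in Spp1-only members, and these 11 cells held 35.6% of all UMIs of the class. At least 3 C1q UMIs were found in 9 of 11 Mmp12 members and 12 of 26 Spp1-only members, of which 10 had none.

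Without the 11 Mmp12 members, 3.40% of 7436 genes were at least 2-fold higher and 6.62% lower than in the other macrophages. Of the 16 genes with the highest ratios 15 could be measured and were at least 2-fold higher, and 10 of the 10 lowest were at least 2-fold lower, counts that the choice of these genes from the same cells largely fixes. The median of the lipid-associated list was then 0.60, with 5 of 23 genes higher and 2 lower, against 1.46 in Mmp12 members alone, with 16 higher and 3 lower where 7.39% and 25.0% of 6959 genes were. In Spp1-only members it was 0.51, with 8 of 22 higher and 2 lower where 5.71% and 12.3% of 6864 genes were. The median of lysosomal enzymes was 0.29 without Mmp12 members and 0.84 in them alone. The MHC class II list stayed low in each, with medians of -2.55 in Mmp12 members and -2.29 in Spp1-only members. The lysosomal and lipid-associated medians were thus higher in the 11 deep cells than in the rest, and the class II median was low in both groups.

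Between Mmp12 members and Spp1-only members, 3744 genes were measured, and 303 (8.09%) were at least 2-fold higher and 678 (18.1%) at least 2-fold lower in Mmp12 members. The genes named were the 12 with the largest ratio in each direction that had a UMI in at least 40% of the cells of the higher class and no cell with over 50% of its UMIs, a rule chosen after the values had been seen. Higher in Mmp12 members were Cd200, an immune checkpoint ligand, H2-M2, a nonclassical class I gene, Itgax, the stress-induced kinase Plk2, Fbxo32, Fabp4, the kinase genes Rps6ka2 and Cdk18, the endoplasmic reticulum protein gene Wfs1, the membrane protein gene Ttyh2, the lymphangiogenic factor gene Ccbe1 and Creg2. Itgax had 812 CPM in Mmp12 members and 41.8 CPM in Spp1-only members (ratio 19.4, 9.67 to 45.7). It ran from 0 through a median of 764 to 1441 CPM over the 11 Mmp12 members, and from 0 through a median of 0 to 425 CPM over the 26 Spp1-only members. The groups overlapped below 425 CPM, with a UMI in 10 of 11 and 4 of 26 cells.

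Cd200 had 237.5 CPM in Mmp12 members, with a UMI in 8 of 11 cells, and 0 UMIs in Spp1-only members, which makes it at least 15.2-fold higher when 3 UMIs over the group are taken as the floor. H2-M2 was likewise at least 14.4-fold higher, Creg2 at least 8.77-fold, Ccbe1 at least 7.71-fold and Ttyh2 at least 5.85-fold. Plk2 had 487 against 26.1 CPM, with a UMI in 10 of 11 and 3 of 26 cells. Among genes of the lists, Atp6v0d2 had 1775 against 298 CPM, Lgals3 11566 against 2582 CPM, Ctsl 4441 against 1751 CPM and Prdx1 5037 against 1604 CPM. Every one of the 11 Mmp12 members had an Atp6v0d2 UMI, from 154 to 6576 CPM, against 6 of 26 Spp1-only members.

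Mmp12 members nearly lacked several inflammatory and monocyte transcripts that Spp1-only members carried. Against other C1q-positive macrophages, Spp1-only members had a median of 0.24 over 19 monocyte genes (2 higher, 3 lower). Over 24 inflammatory genes it was 0.10 (2 higher, 4 lower), where 5.71% and 12.3% of all genes were. Mmp12 members had medians of -2.40 (1 of 19 higher, 14 lower) and -1.43 (1 of 23 higher, 14 lower). Of all genes, 7.39% and 25.0% were. In both lists the Mmp12 members thus differed more from the other macrophages. Il1b, the interleukin-1 beta gene, had 8.33 CPM in Mmp12 members and 2148 CPM in Spp1-only members, against 1829 CPM in other C1q-positive macrophages. It was found in 2 of 11 Mmp12 members, at up to 58.2 CPM, and in 18 of 26 Spp1-only members, with a median of 1119 and a highest value of 14345 CPM. The cyclooxygenase Ptgs2 had 0 UMIs in Mmp12 members and 465 CPM in Spp1-only members, so it was at least 37.2-fold lower in Mmp12 members. Thbs1, thrombospondin, had 25.0 against 888 CPM, the coagulation factor gene F13a1, which monocyte-derived cells express, 16.7 against 476 CPM, and the lipid scavenger receptor Olr1 20.8 against 413 CPM. The remaining genes of this direction were Tlr2, Ier3, Nr4a3, Pmepa1, Gpr132, Ifih1 and Sh3bp5.

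The lists ran the same way. Of 13 monocyte genes 0 were higher and 10 lower in Mmp12 members (median -2.42), with Ccr2 at 4.17 against 319 CPM and Plac8 at 4.17 against 324 CPM. Of 16 inflammatory genes 1 was higher and 11 lower (median -1.70), and of 17 chemokine genes 0 were higher and 11 lower (median -1.28). Fn1 had 1496 against 3068 CPM and Arg1 75.0 against 1061 CPM, with an Arg1 UMI in 1 of 11 and 9 of 26 cells. Of 18 matrix protein genes, which include Fn1, 8 were lower and 1 higher (median -0.92). Of 21 lipid-associated genes 9 were higher and 2 lower (median 0.98). These groups were made from the gate and differ in depth as well as in gate sum, and whether they are separate kinds of cell was not tested. The neutrophil transcript S100a8 had 3045.5 against 11696 CPM in them, and its part in the difference was not tested.

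**Figure D5:**
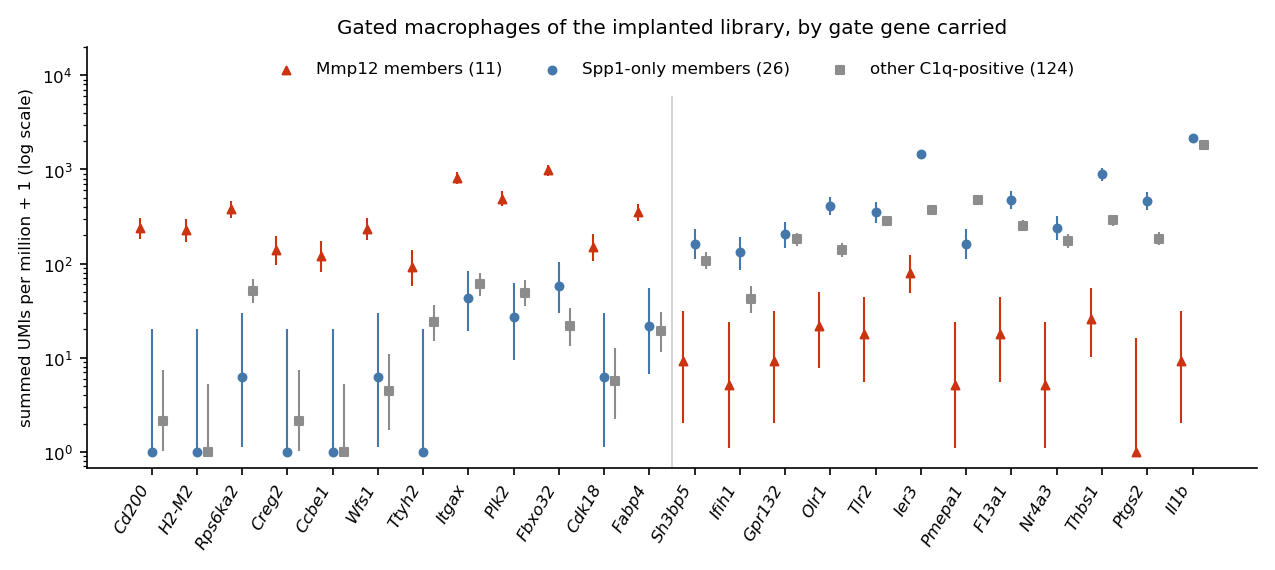
Summed CPM plus 1, on a log scale, for the 12 genes named in each direction between Mmp12 members (triangles, 11 cells) and Spp1-only members (circles, 26 cells) of the implanted library, with other C1q-positive macrophages (squares, 124 cells) beside them. Lines are 95% Poisson intervals of counting. Itgax stands at 812 against 41.8 at left and Il1b at 8.33 against 2148 at right, where other macrophages lie near Spp1-only members for Il1b.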

How the data were processed

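The deposited files hold UMI counts per gene and cell barcode of 2 droplet libraries, 1 implanted and 1 non-implanted, made with Cell Ranger 3.0.1 per the file headers. The mm10/GRCm38 build and Seurat are named in the submitters' processing notes, while the annotation release is not given in the sources used here. The extraction protocol in the labels describes other ages and tissue, so the selection by CD11b was taken from the sample labels. The members and gene lists were chosen with earlier results of these data known.

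Non-gene features (107, with 22 UMIs) were left out, and doublets were not removed in the values reported. UMIs were summed per class and scaled to 1e6. A gene needed 20 UMIs over both classes, the 10 genes of the gate were left out, and log2 ratios used a pseudocount of 5 CPM. Printed ratios are of CPM without the pseudocount, with exact conditional 95% intervals, CPM intervals are Poisson and shares Clopper-Pearson. Named genes were the 16 highest and 10 lowest ratios among genes with a UMI in at least 25% of cells of the higher class. Without that detection limit, the 10 highest levels and the 3 highest and 2 lowest of each list were named too. Genes outside this rule that the text names were at least 2-fold different in their list, or were chosen after their values were seen. Ferritin, globin, histone and H2 genes have close copies among which reads can be split. Alternatives changed pseudocount, filter, cell weighting, depth, gate, doublets (Scrublet), scaling and reference cells. Calculations used Python 3.11.15 with numpy 2.4.6, scipy 1.17.1, pandas 2.3.3, scanpy 1.11.5 and matplotlib 3.10.9, and were tested on simulated data. Some genes of the marker and gene lists are not reported here by name.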

Additional observations from a re-analysis of the deposited data

Results flagged for a closer look

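Hbb-bs moved in opposite directions in the libraries. Its log2 ratio of gated to other C1q-positive macrophages was 1.03 in the non-implanted library and -6.09 in the implanted library, and the difference between the libraries was not tested. In the implanted library 1 gated cell held 54.0% of the gated Hbb-bs UMIs, and the 5 erythroid markers summed to 123 CPM in gated cells and 9242 CPM in other macrophages, against 330 and 181 CPM in the non-implanted library. Whether red cell RNA has a part in these values was not tested.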

How the results depend on the processing

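Of 366 genes at least 2-fold higher and 637 lower in gated cells, the counts were 228 and 281 with a pseudocount of 20 CPM, 234 and 345 with at least 50 UMIs per gene, 569 and 1049 with at least 1 UMI, and 231 and 358 with cells thinned to 2000 UMIs. With every cell weighted equally 579 were higher, and with a gate sum of at least 50 UMIs 1034 were lower. Over 20 settings the counts ran from 228 to 579 and from 281 to 1049. Of the values of the 16 highest and 10 lowest genes under alternatives, 509 kept their direction and side of the 2-fold limit. The 1 that did not was Hbb-bs, at -0.41 against the non-implanted library. The choice of these genes from the same cells largely fixes that count, so it is no support. Of list medians 503 stayed between the medians of their genes' lower and upper counting bounds in the main setting, and 17 moved outside. That band can span 0, so a median may change sign within it. The iron and heme median, -0.01, counted as kept at 0.45 with at least 50 UMIs per gene. Gated cells were 35 in the implanted library and 2 in the non-implanted library when thinned to 2000 UMIs before gating, and in the non-implanted library 22 with a gate sum of at least 3 and 4 with one of at least 10. The causes were not tested. Added after seeing the data were 3 alternatives: gated cells with at least 3 C1q UMIs gave 358 higher and 688 lower, those without 5 or more Mmp12 UMIs 253 and 492, and cells without a hemoglobin UMI 299 and 629. No paired analysis was possible because each group has 1 library. Depth limits the 14 non-implanted cells most, with 124058 UMIs against 673283 in the implanted gated cells.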
